A study of Mus musculus with 15 samples.

Results

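The 9 genes of microbe-facing defence followed here in mouse proximal small intestinal epithelium encode the indoleamine dioxygenase Ido1, the oxidases Duox2 and Nox1, the oxidase maturation factor Duoxa2, the inducible nitric oxide synthase Nos2 and the secreted defence proteins Lcn2, Saa1, Saa2 and Retnlb. They are 9 of the 24594 rows of the count table of sorted epithelium and were picked by symbol, with their difference between fetal and adult epithelium already known. Their own values are therefore given as a description without a test.

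The adult group held 3 libraries of crypt cells from wildtype adult C57Bl/6J mice, taken from the first 20% of small intestinal length. The sort kept live cells (DAPI-negative) that carried EpCAM and intermediate CD24 and lacked lineage markers. The fetal group held 3 libraries of proximal intestine of C57Bl/6J fetuses at E16.5, sorted as EpCAM-positive, DAPI-negative cells without the endothelial marker CD31 or the leukocyte marker CD45. Neither group was treated, and both were profiled without culture. EpCAM is a surface protein of epithelial cells. The sources used here give no fetal genotype or library kit. Age, tissue part (crypts in adults, proximal intestine in fetuses) and sort gate changed together and cannot be told apart. No group differed in exposure to microbes alone, so the word microbe-responsive in the working name was not tested.

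DUOX2 and NOX1 are enzymes of the NADPH oxidase family: DUOX2 releases hydrogen peroxide and NOX1 superoxide at the epithelial surface. DUOX2 needs its maturation factor DUOXA2 to leave the endoplasmic reticulum, and NOX1 works with CYBA, the organizer NOXO1, the activator NOXA1 and the small GTPase RAC1. In the intestine, genes of this kind are known to respond to bacteria and to cytokines such as interferon gamma, IL-22 and IL-17. IDO1 starts the breakdown of tryptophan to kynurenine, NOS2 makes nitric oxide from arginine, lipocalin 2 (Lcn2) binds bacterial siderophores, serum amyloid A proteins bind retinol and lipids, and RELMβ (Retnlb) is a goblet cell product that acts on bacteria.

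Total counts were 5795518 to 6045113 per adult library and 7888998 to 10538004 per fetal library, so that 1 count was worth 0.169 to 0.176 CPM (counts scaled to a library of 1e6) in adult and 0.0936 to 0.125 CPM in fetal libraries. Chi-square values per degree of freedom between replicates were 4.83 to 9.44, above the sampling noise of 1, and each library was kept as a sample. Separate animals are not stated for all replicates, and p-values then cover only the spread among the libraries, which may be technical. The epithelial markers summed to 7762 to 8215 CPM in adult and 5253 to 5372 CPM in fetal libraries, and 8 of 10 rose in adult crypts. Transcripts of the 4 Y-linked genes examined had 0 counts in the adult and at least 66 counts in each fetal library, so sex composition changed with age too.

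Of the 9 genes, 6 (Ido1, Duox2, Duoxa2, Nox1, Nos2 and Lcn2) were higher in every adult library than in every fetal library. This arrangement was shown by 29.6% of all 13314 tested genes. That share covers only genes that passed the filter on low counts, whereas the 9 genes include 4 that did not, Lcn2 among them. Over all tested genes 54.9% were called in either direction. The filter on low counts kept 5 of the 9 genes (Ido1, Duox2, Duoxa2, Nox1 and Nos2). Lcn2, Saa1, Saa2 and Retnlb did not pass it. In the fetal libraries 5 of the 9 genes had 0 counts throughout, and Nox1 was the highest per kilobase of exon. In bulk libraries, a larger share of expressing cells and more RNA per cell cannot be told apart.

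**Figure D1:**
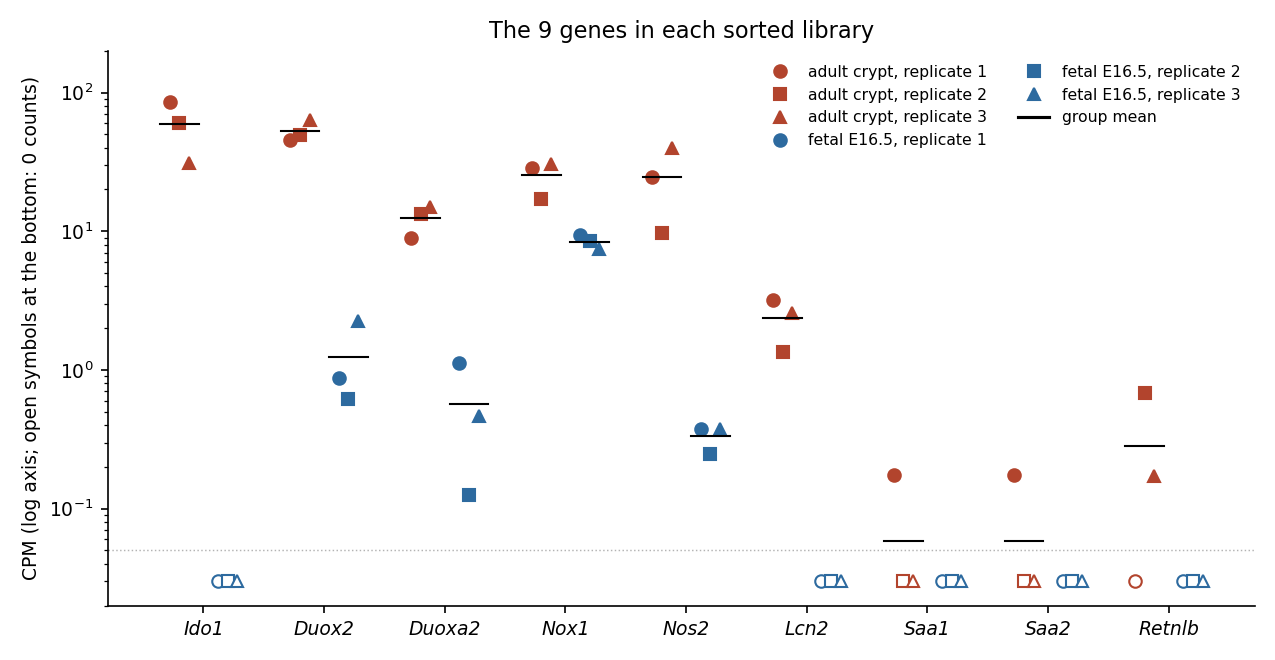
CPM (log axis) of the 9 genes in the 3 adult crypt libraries (red, left) and the 3 fetal libraries (blue, right). Bars are group means and open symbols at the bottom mark 0 counts. Adult and fetal libraries do not overlap for Ido1, Duox2, Duoxa2, Nox1, Nos2 and Lcn2, and Saa1, Saa2 and Retnlb hold at most 4 counts in a library.

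Duox2 (Entrez 214593) lies on the minus strand of chromosome 2, at 122279246 to 122298740 of GRCm38.p6 in RefSeq. It had 257, 293 and 366 counts in the adult libraries and 7, 5 and 24 counts in the fetal ones. This was 45.4, 49.6 and 63.2 CPM in adult crypts, against 0.872, 0.622 and 2.25 CPM in fetal epithelium. Adult replicate 3 was the highest adult library, fetal replicate 3 stood above the other fetal libraries, and the groups did not overlap. The means were 52.7 ± 9.30 CPM in adult and 1.25 ± 0.874 CPM in fetal epithelium (SD, n = 3 each), a log2 fold change of adult over fetal of 5.29 ± 0.28 (SE). This log2 fold change was 6.10 without fetal replicate 3.

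Duoxa2 (Entrez 66811), at 122298900 to 122302885 on the plus strand of chromosome 2, had 8.999, 13.4 and 14.8 CPM in adult crypts and 1.12, 0.125 and 0.468 CPM in fetal epithelium. The fetal values rest on 9, 1 and 5 counts, the adult ones on 51, 79 and 86. The groups did not overlap. The means were 12.4 ± 3.04 CPM in adult and 0.571 ± 0.506 CPM in fetal libraries (SD, n = 3 each), and the log2 fold change of adult over fetal was 4.42 ± 0.42 (SE). It was 5.21 without fetal replicate 1.

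Duox2 and Duoxa2 are read in opposite directions from a shared stretch: in GENCODE M21 only 450 bases separate their annotated starts. The 250 bases before the RefSeq start of Duoxa2 are shown because the pair faces this stretch. They are chr2:122298650-122298899 of GRCm38.p6, plus strand, from RefSeq, whose span for Duox2 ends at 122298740, inside this window. Capitals mark an AP-1 motif (TGAATCA, 168 to 162 bases before the start) and a TATA box (TATAAA, 30 to 25 bases before the start).
Duoxa2: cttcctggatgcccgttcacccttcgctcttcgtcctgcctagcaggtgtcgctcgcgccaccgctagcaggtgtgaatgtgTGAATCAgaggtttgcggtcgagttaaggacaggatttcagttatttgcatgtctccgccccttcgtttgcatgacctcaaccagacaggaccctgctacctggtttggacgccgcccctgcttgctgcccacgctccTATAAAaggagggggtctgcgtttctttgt
Both strands were searched for 6 motifs: AP-1 (TGANTCA), the TATA box with the letters above, STAT (TTCNNNGAA), C/EBP (TTGCNNAAT), NF-kB, and ISRE, a pair of GAAA words with any 2 bases between them. No match overlapped another in the windows of the 9 genes. Among 32851 RefSeq promoter windows of 250 bases, 6.75% held the AP-1 letters and 12.4% the TATA letters. Of the 9 genes 6 had a promoter window (Duox2, Duoxa2, Nox1, Lcn2, Saa1 and Saa2). The window of Duox2 starts from a transcript start at 122298227, inside its gene span. The windows of Duox2 and Lcn2 held none of the 6 motifs, but 222 and 197 of their bases lie in exons that GENCODE gives to these genes.

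The cluster on chromosome 2 holds a second pair, Duoxa1 and Duox1, on the side of Duoxa2. Duoxa1, the maturation factor of DUOX1, rose in adult crypts: it had 9.88, 10.5 and 12.6 CPM there, against 1.74, 0.249 and 0.936 CPM in fetal epithelium (log2 fold change 3.48 ± 0.39 (SE), adjusted p = 6.32e-06, edgeR quasi-likelihood test). Without fetal replicate 1 this log2 fold change was 4.08. Duox1 itself had 4, 5 and 3 counts in adult and 2, 3 and 4 in fetal libraries and was not tested. Duox1 was low in both groups, and in fetal replicate 2 Duoxa1, at 2 counts, was as low as Duox1.

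Duoxa2 and Duoxa1 overlap tail to tail on opposite strands by 695 bases, and 682 exon bases are shared, which is 42.8% of the exon bases of Duoxa2 and 17.2% of those of Duoxa1. The strand setting of the counting is not given in the sources used here, so reads from the shared part could stand in either row. Of the 50-base windows of the Duox2 transcript, 6.84% also occur in Duox1 transcripts. Per kilobase of exon, adult levels were 6.70 to 9.33 CPM for Duox2, 5.65 to 9.32 CPM for Duoxa2, 2.49 to 3.17 CPM for Duoxa1 and 0.0983 to 0.161 CPM for Duox1. Fetal levels per kilobase were at most 0.332 CPM for Duox2, 0.704 CPM for Duoxa2, 0.438 CPM for Duoxa1 and 0.0711 CPM for Duox1.

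**Figure D2:**
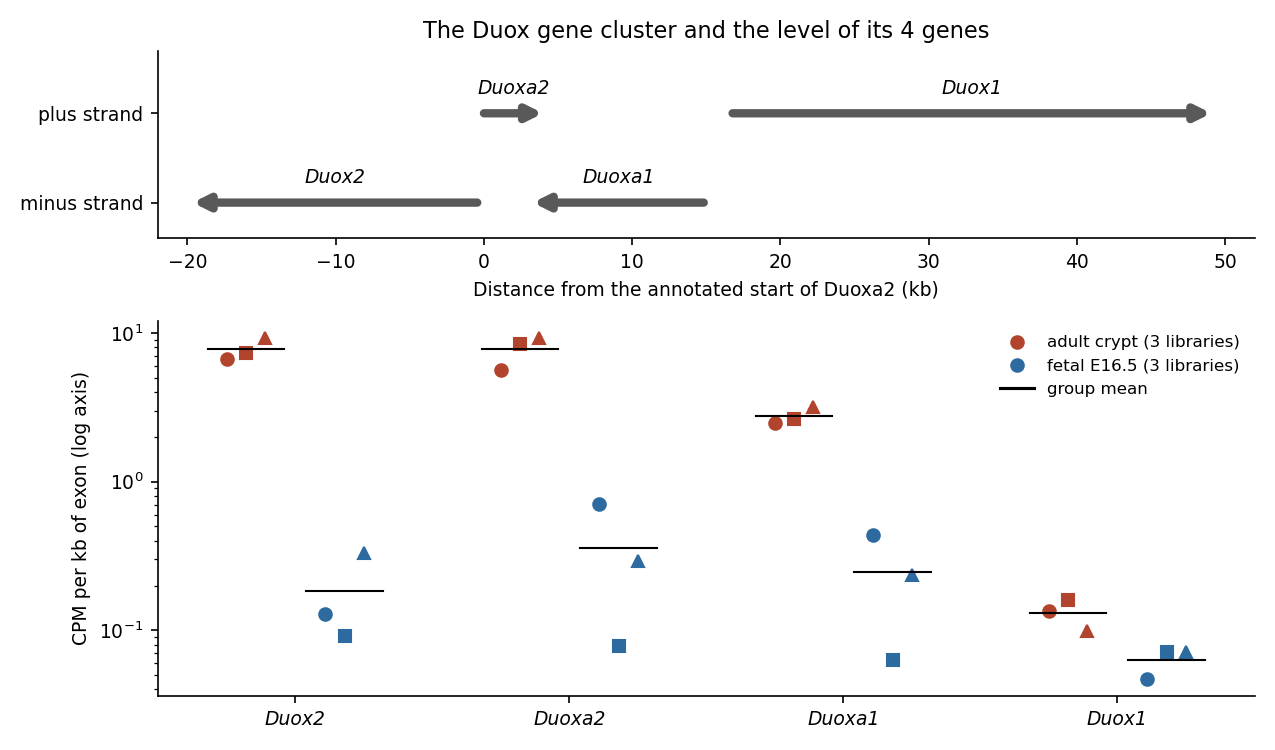
Top, the 4 genes of the Duox cluster on chromosome 2 by strand (distance from the start of Duoxa2 in kb, arrows in the direction of transcription). Bottom, CPM per kb of exon (log axis) in each adult (red, left) and fetal (blue, right) library, with symbols for replicates 1 (circle), 2 (square) and 3 (triangle) and bars for group means. Duox2 and Duoxa2 reach similar adult levels per kb, 7.78 and 7.79 on average, and Duox1 stays at or below 0.161.

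Nox1 (Entrez 237038) lies on the minus strand of chromosome X at 134086421 to 134137711. It had 28.8, 17.1 and 30.5 CPM in adult crypts, against 9.34, 8.47 and 7.49 CPM in fetal epithelium, from 101 to 177 counts per adult library and 68 to 80 per fetal library. The groups did not overlap, and adult replicate 2 was the lowest adult library. The means were 25.5 ± 7.30 CPM in adult and 8.43 ± 0.927 CPM in fetal libraries (SD, n = 3 each), a log2 fold change of 1.60 ± 0.22 (SE). Of the 5 genes that passed the filter it had the smallest log2 fold change. Nox1 shares 12.1% of its exon bases with Cstf2 on the other strand. Because Nox1 is X-linked, the change in sex composition stands beside its values, and its part in them was not tested.

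The RefSeq promoter table takes as the start of Nox1 a transcript start at 134111854, which lies inside the gene span given above. The 250 bases before that internal start, chrX:134111855-134112104 of GRCm38.p6 on the minus strand, are shown because they hold the only NF-kB letters found in the 6 windows. The NF-kB motif searched was GGG and TTTCC with any 2 bases between. The match, GGAAAACCCC in capitals, is on the opposite strand, 91 to 82 bases before that start. Of all promoter windows of this length, 1.41% held such a match.
Nox1: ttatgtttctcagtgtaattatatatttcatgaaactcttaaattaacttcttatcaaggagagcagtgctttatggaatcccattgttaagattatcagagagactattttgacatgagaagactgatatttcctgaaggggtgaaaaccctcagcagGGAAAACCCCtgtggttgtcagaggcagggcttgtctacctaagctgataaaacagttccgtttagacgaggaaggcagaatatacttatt
These letters are a match to a pattern and were not measured as a binding site.

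The partners of NOX1 differed among themselves: Noxa1, Noxo1 and Rac1 rose in adult crypts, and Cyba did not pass the test. They belong to a wider list of 13 genes that also holds other oxidases and the pair Duox1 and Duoxa1. Of these 13 genes 7 were tested. In adult crypts 4 rose, Duoxa1 among them, and 1 fell, the separate oxidase Nox4. Of all tested genes 25.9% rose and 29% fell. The median log2 fold change of the 7 was 0.47, against -0.0062 over all tested genes. Noxa1, the activator, rose to 39.4, 29.5 and 49.0 CPM in adult crypts, against 5.73, 5.85 and 5.43 CPM in fetal epithelium (log2 fold change 2.79 ± 0.20 (SE), edgeR adjusted p = 8.03e-08). Noxo1, the organizer, rose to 50.99, 48.4 and 60.7 CPM, against 11.3, 13.2 and 14.2 CPM in fetal libraries (2.04 ± 0.13 (SE), edgeR adjusted p = 4.83e-08). Of the exon bases of Noxo1, 70.4% overlap Tbl3 on the other strand. Rac1 rose by less, with a log2 fold change of 0.47 ± 0.08 (SE) and an edgeR adjusted p of 2.76e-04, and 51.4% of its exon bases overlap Daglb.

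Cyba, the membrane partner shared by several oxidases, had 22.1, 25.9 and 31.8 CPM in adult crypts and 24.5, 29.8 and 21.0 CPM in fetal epithelium. These values overlapped, and the log2 fold change of 0.09 ± 0.16 (SE) did not pass the test (edgeR adjusted p = 0.671). Its sign turned without adult replicate 3 or without fetal replicate 3. Nox4, an oxidase that makes hydrogen peroxide without the cytosolic partners, had 0 counts in all adult libraries and 3.61, 4.86 and 5.15 CPM in fetal epithelium. The fetal level was at least 26.6-fold higher, against a floor of 3 counts over the adult group.

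Nos2 (Entrez 18126) lies on the plus strand of chromosome 11 at 78920787 to 78960226. It had 24.7, 9.65 and 39.5 CPM in adult crypts and 0.374, 0.249 and 0.374 CPM in fetal epithelium. The fetal values rest on 3, 2 and 4 counts. Adult replicate 2 was the lowest and replicate 3 the highest adult library, and both were above every fetal library. The means were 24.6 ± 14.9 CPM in adult and 0.332 ± 0.0721 CPM in fetal libraries (SD, n = 3 each), a log2 fold change of 6.12 ± 0.59 (SE).

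Genes that supply the substrate and cofactor of nitric oxide synthases or remove their inhibitors mostly fell. Of 12 listed nitric oxide and tetrahydrobiopterin genes 10 were tested: 6 fell, 1 rose and 3 did not pass the test in adult crypts, with a median log2 fold change of -0.74. Gch1, which catalyses the first step of tetrahydrobiopterin synthesis, fell to 22.1, 21.0 and 13.98 CPM in adult crypts, against 34.5, 40.5 and 29.9 CPM in fetal epithelium (log2 fold change -0.87 ± 0.17 (SE), edgeR adjusted p = 8.06e-04). Ass1, which remakes arginine from citrulline together with Asl, fell with a log2 fold change of -3.58 ± 0.43 (SE) and an edgeR adjusted p of 1.42e-05. Its adult values rest on 2, 7 and 1 counts, and without adult replicate 2 the log2 fold change was -4.66.

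Both genes for the enzymes that break down dimethylarginines, inhibitors of nitric oxide synthases, fell too. Ddah1 had 1.41, 5.93 and 2.76 CPM in adult crypts, against 52.7, 44.9 and 38.5 CPM in fetal epithelium, a log2 fold change of -3.73 ± 0.28 (SE) with an edgeR adjusted p of 1.87e-07. It was -4.42 without adult replicate 2. Ddah2 fell with a log2 fold change of -2.13 ± 0.42 (SE; edgeR adjusted p = 8.29e-04). The gene that rose was Spr, sepiapterin reductase, which carries out the last step of tetrahydrobiopterin synthesis, with 67.2, 83.3 and 81.8 CPM in adult and 56.9, 64.0 and 56.9 CPM in fetal libraries. It is named outside the rule for named genes because it was the single riser, and its log2 fold change was 0.39 ± 0.10 (SE; edgeR adjusted p = 0.00678).

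Ido1 (Entrez 15930) lies on the minus strand of chromosome 8 at 24584133 to 24596952. It had 488, 355 and 179 counts in the adult libraries and 0 counts in all 3 fetal libraries. The adult levels were 86.1, 60.1 and 30.9 CPM, with replicate 1 the highest and replicate 3 the lowest. The adult mean was 59.0 ± 27.6 CPM (SD, n = 3), at least 525-fold higher than the fetal floor of 0.112 CPM, which is 3 counts over the fetal group. Floors and counting intervals cover counting error only.

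Of the other tryptophan breakdown genes 5 were tested, and 4 of them fell in adult crypts. Of 17 listed kynurenine and aryl hydrocarbon receptor genes 8 were tested: 5 fell and 3 did not pass the test in adult crypts, with a median log2 fold change of -0.51. Kynu, kynureninase, had 1, 0 and 0 counts in adult and 29, 56 and 66 counts in fetal libraries, a fetal to adult ratio of 98.0 with an exact 95% interval of 17.3 to 3897. Qprt, which makes a precursor of NAD from quinolinate, had 0, 0 and 1 counts in adult and 17, 23 and 26 in fetal libraries, a fetal to adult ratio of 42.9 (7.43 to 1718). Afmid, which hydrolyses the product of IDO1 to kynurenine, fell to 8.65, 5.59 and 7.59 CPM in adult crypts, against 15.2, 18.1 and 15.3 CPM in fetal epithelium (log2 fold change -1.15 ± 0.20 (SE), edgeR adjusted p = 2.5e-04). Of its exon bases, 44.3% overlap those of a second gene model on the same strand.

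Kmo and Haao, enzymes of the arm that leads to quinolinate, were too low to test, with 1 and 4 counts summed over the adult group and 11 and 3 counts summed over the fetal group. Ahr, a receptor that kynurenine and microbial indoles can bind, had 38.6, 33.0 and 34.0 CPM in adult crypts and 38.5, 32.9 and 37.8 CPM in fetal epithelium. Its log2 fold change of -0.05 ± 0.11 (SE) did not pass the test (edgeR adjusted p = 0.746), and it was 0.0030 without adult replicate 2. The AHR target gene Tiparp fell with a log2 fold change of -0.54 ± 0.15 (SE; edgeR adjusted p = 0.00734), and Cyp1a1, another AHR target named outside the rule after its values were seen, was too low to test at 3, 25 and 5 counts in adult libraries and 0 counts in fetal ones.

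Lcn2 (Entrez 16819) lies on the minus strand of chromosome 2 at 32384637 to 32387739. It had 18, 8 and 15 counts in the adult libraries and 0 counts in all fetal libraries, or 3.18, 1.35 and 2.59 CPM in adult crypts. The adult mean of 2.37 ± 0.930 CPM (SD, n = 3) was at least 21.0-fold higher than the fetal floor. Slc22a17, a receptor for lipocalin 2, fell with a log2 fold change of -1.70 ± 0.33 (SE; edgeR adjusted p = 7.2e-04). Of 12 listed acute phase and siderophore genes only 3 were tested, and the one that rose was Pglyrp1, a peptidoglycan-binding protein, at 36.7, 46.4 and 52.5 CPM in adult and 21.7, 21.7 and 18.1 CPM in fetal libraries (1.15 ± 0.14 (SE), edgeR adjusted p = 1.94e-05). Leaving out any 1 library other than adult replicate 3 gave 2 rising genes. Saa3 and haptoglobin (Hp), both acute phase genes, had at most 5 counts in any library.

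Saa1 (Entrez 20208, 46740497 to 46743181, minus strand) and Saa2 (Entrez 20209, 46751833 to 46754313, plus strand) are neighbours on chromosome 7. Each had 1 count, in adult replicate 1, and 0 counts in the other 5 libraries, so no fold is given. At this depth a level under 0.173 CPM in adult crypts or 0.112 CPM in fetal epithelium could not be told from absence. The transcripts are 93.9% identical over 609 aligned bases, so single reads could stand in either row. Stretches before a transcript start of each are shown because they are about as alike as the transcripts. The starts in the RefSeq promoter table are 46742980 for Saa1, inside its gene span, and 46751833 for Saa2. The 200 bases from 250 to 51 before these starts are 93.5% identical over 201 aligned positions, and both hold TTGCACAAT, a C/EBP motif, in capitals. Of all promoter windows, 2.11% held that motif. The stretches are chr7:46743031-46743230 on the minus strand for Saa1, which falls mostly inside that span, and chr7:46751583-46751782 on the plus strand for Saa2, from RefSeq GRCm38.p6.
Saa1: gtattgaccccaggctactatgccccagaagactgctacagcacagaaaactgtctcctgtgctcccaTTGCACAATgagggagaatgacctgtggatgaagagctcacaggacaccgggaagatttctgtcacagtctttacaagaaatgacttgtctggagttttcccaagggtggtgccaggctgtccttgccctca
Saa2: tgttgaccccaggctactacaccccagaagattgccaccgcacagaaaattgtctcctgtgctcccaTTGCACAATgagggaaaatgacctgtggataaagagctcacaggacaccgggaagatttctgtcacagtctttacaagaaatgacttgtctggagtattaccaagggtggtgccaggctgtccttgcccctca

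Retnlb (Entrez 57263) lies on the plus strand of chromosome 16 at 48816856 to 48818892. It had 0, 4 and 1 counts in the adult libraries and 0 counts in the fetal ones. Its 3 relatives of the resistin family, Retn, Retnla and Retnlg, had at most 1 count in any library, and none was tested. Retnlb is a goblet cell product, and goblet cell markers were abundant: they summed to 33200, 31750 and 17680 CPM in the adult libraries, against 4843, 7247 and 7366 CPM in the fetal ones, and 7 of 9 rose. The adult libraries thus held goblet cell transcripts with almost no Retnlb. The receptors of IL-4 and IL-13, cytokines known to induce Retnlb in mice, were higher in adult crypts. Il13ra1 rose with a log2 fold change of 1.05 ± 0.13 (SE; edgeR adjusted p = 1.45e-05), Il4ra with 0.73 ± 0.14 (SE; edgeR adjusted p = 7.17e-04) and their transcription factor Stat6 with 0.85 ± 0.09 (SE; edgeR adjusted p = 3.22e-06). Of the 6 listed genes of this branch 4 were tested, and the fourth, the kinase gene Jak3, fell (-0.66 ± 0.18 (SE), edgeR adjusted p = 0.00659).

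Per kilobase of exon, a scale on which genes can be set side by side, Ido1 had the highest adult level of the 9 genes, 32.4 ± 15.1 CPM (SD, n = 3), and its range of 16.9 to 47.2 CPM did not overlap the next. Duoxa2 at 7.79 ± 1.91, Duox2 at 7.78 ± 1.37, Nox1 at 7.70 ± 2.21 and Nos2 at 5.58 ± 3.38 CPM per kilobase followed, and neighbours in this order overlapped. Lcn2 at 0.905 ± 0.354 CPM per kilobase lay below the lowest Nos2 library, at 2.19. Retnlb, Saa1 and Saa2 came last, and neighbours overlapped from Lcn2 on. In fetal epithelium Nox1 led at 2.55 ± 0.280 CPM per kilobase, ahead of Duoxa2 at 0.359 ± 0.318, Duox2 at 0.184 ± 0.129 and Nos2 at 0.0753 ± 0.0164. The exon lengths join all annotated transcripts of a gene, so levels of genes with rare long transcripts, such as Lcn2 and the Saa genes, are understated.

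Each of the 6 genes that did not overlap between the groups varied more between the adult libraries than most genes of a like level, Ido1 and Nos2 most of all, and these 2 did not vary in the same way. The coefficient of variation of Ido1 was 46.8%, against a median of 8.603% over the 4575 genes whose adult mean lay within 2-fold of it, and 99.9% of these genes varied less. That of Nos2 was 60.6%, against a median of 11.1% over 4324 such genes, and 99.8% varied less. Nox1 had 28.7% (median 10.95%, with 96.3% of its level-matched genes varying less), Duoxa2 24.5% (median 14.7%, 82.8% varying less) and Duox2 17.6% (median 8.81%, 89.7% varying less). Lcn2, with few counts, had 39.2% (median 29.7%, 68.2% varying less). The highest adult library was 2.79 times the lowest for Ido1 and 4.09 times for Nos2. Ido1 was highest in replicate 1 and lowest in replicate 3, whereas Nos2 was highest in replicate 3 and lowest in replicate 2.

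Some markers of other epithelial cells had the same order over the adult libraries as Ido1. Adult replicate 3, the lowest for Ido1, had goblet markers at 0.642 of the adult mean, the enterocyte gene Sis at 0.722 and stem cell markers at 1.18. In adult replicate 2, the lowest for Nos2, goblet markers were at 1.15, Sis at 0.923 and stem cell markers at 0.948, so none of these was at its lowest there. Replicate 3 was the highest for Nos2, and also for Ciita, the activator of MHC class II genes, which had 54.4 CPM there, against 28.9 and 24.7 CPM in adult replicates 1 and 2. The part of these markers in the spread of Ido1 and Nos2 was not tested.

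**Figure D3:**
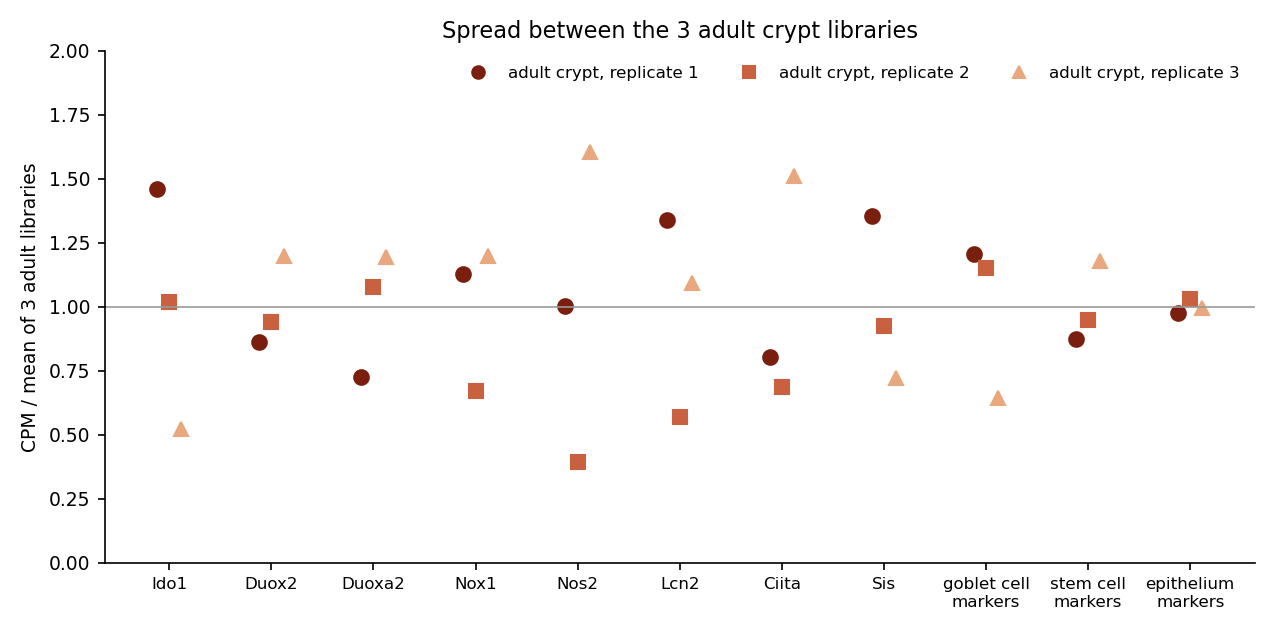
Each point is 1 adult crypt library, as CPM divided by the mean of the 3 adult libraries (line at 1), for 6 of the genes, for Ciita and Sis, and for the summed markers of goblet cells, stem cells and epithelium. Ido1 runs from 1.46 in replicate 1 to 0.523 in replicate 3, Nos2 from 1.60 in replicate 3 to 0.392 in replicate 2, and the epithelial markers stay between 0.975 and 1.03.

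The nearest profiles over the 6 libraries were sought among all tested genes by the root mean square difference of log2(CPM + 1). This measure compares the level in each library, so a near gene need not share the order of the adult libraries. For Duoxa2 the nearest gene was its neighbour Duoxa1, at 0.28, with which it shares exon bases, followed by Tstd1 and Sp5. For Duox2 the nearest were Gpr55, at 0.26, Ces2g and Barx2. For Nox1 they were H2ac21, at 0.16, B4galnt3 and Eldr. For Nos2 they were Igtp, at 0.47, Ky and Ciita, and for Ido1 Car4, at 0.54, Apol10a and Itln1. H2ac21 had the order of Nox1 over the adult libraries, whereas Car4 and Gpr55 did not have that of Ido1 and Duox2. None of the 5 tested genes had another of these 5 among its 3 nearest, and the 4 genes that were not tested could not be found by this search.

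Receptors and signal carriers of the cytokines known to act on these genes were compared next. In the interferon gamma branch 6 of 8 tested genes rose in adult crypts and 2 did not pass the test, with a median log2 fold change of 1.01. Ciita, known to be induced by interferon gamma, had 28.9, 24.7 and 54.4 CPM in adult crypts, against 0.249, 0.125 and 0.748 CPM in fetal epithelium (log2 fold change 6.40 ± 0.45 (SE), edgeR adjusted p = 8.61e-08; 7.44 without fetal replicate 3). Irf1, a transcription factor known to be induced by interferon gamma, rose to 183, 171.0 and 191 CPM, against 47.1, 43.8 and 56.8 CPM (1.88 ± 0.10 (SE), edgeR adjusted p = 1.04e-08). Irf8, a related transcription factor, rose by 2.09 ± 0.12 on the log2 scale (SE; edgeR adjusted p = 1.44e-08). The receptor gene Ifngr1 rose by 0.86 ± 0.09 (SE; edgeR adjusted p = 3.66e-06).

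The IL-22, IL-17 and IL-6 branch was mixed. Of 14 tested genes 8 rose, 3 fell and 3 did not pass the test, with a median log2 fold change of 0.30, and 5 rose without fetal replicate 2. Il22ra1, the epithelial IL-22 receptor chain, fell to 52.2, 47.6 and 40.4 CPM in adult crypts, against 82.9, 94.6 and 97.9 CPM in fetal epithelium (log2 fold change -0.98 ± 0.11 (SE), edgeR adjusted p = 7.84e-06). Its partner chain Il10rb also fell (-0.84 ± 0.09 (SE), edgeR adjusted p = 7.79e-06). The fucosyltransferase gene Fut2, known to be induced by IL-22 in mice, had 4.94, 1.19 and 2.93 CPM in adult and 71.0, 104 and 107 CPM in fetal libraries (-4.96 ± 0.28 (SE), edgeR adjusted p = 1.05e-08).

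Of 3 tested chains of IL-17 receptors 2 rose, Il17rc with a log2 fold change of 1.63 ± 0.12 (SE; edgeR adjusted p = 9.9e-08) and Il17ra with 0.55 ± 0.14 (SE; edgeR adjusted p = 0.00425). Socs3, a feedback inhibitor of STAT3, rose by 0.47 ± 0.13 (SE; edgeR adjusted p = 0.00837). Stat3 rose by 0.35 ± 0.12 (SE) with an edgeR adjusted p of 0.0251. That call was lost without adult replicate 2 (adjusted p = 0.11), without fetal replicate 1 (adjusted p = 0.104) and without fetal replicate 2 (adjusted p = 0.0718).

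Among microbial sensors and the NF-kB branch, 13 of 19 tested genes rose, 2 fell and 4 did not pass the test, with a median log2 fold change of 0.82. Relb, an NF-kB subunit, rose to 33.2, 34.9 and 38.1 CPM in adult crypts, against 3.73, 4.48 and 4.21 CPM in fetal epithelium (log2 fold change 3.09 ± 0.16 (SE), edgeR adjusted p = 4.28e-09). Tlr3, a sensor of double-stranded RNA, rose by 2.79 ± 0.17 on the log2 scale (SE; edgeR adjusted p = 2.37e-08). Nod2, a sensor of muramyl dipeptide, rose by 2.20 ± 0.36 (SE; edgeR adjusted p = 2.03e-04), and the NF-kB inhibitor gene Nfkbia by 1.61 ± 0.11 (SE; edgeR adjusted p = 5.09e-08). The adaptor Myd88 rose by 0.54 ± 0.11 (SE; edgeR adjusted p = 9.65e-04). Tlr5, the flagellin receptor, went the other way, with 0.882, 0 and 1.21 CPM in adult crypts and 31.9, 37.4 and 38.7 CPM in fetal epithelium (-5.67 ± 0.34 (SE), edgeR adjusted p = 1.9e-08). Its log2 fold change was -5.08 without adult replicate 2 and -6.33 without adult replicate 3. Tlr4, the lipopolysaccharide receptor, had 1 count over the adult and 12 over the fetal libraries and was not tested.

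Genes that handle superoxide and hydrogen peroxide, the products of NOX1 and DUOX2, held both directions. Of 18 tested genes 9 rose (50.0%, against 25.9% of all tested genes), 6 fell (33.3%, against 29% of all) and 3 did not pass the test, with a median log2 fold change of 0.08. Gpx2, the gastrointestinal glutathione peroxidase, rose to 236, 314 and 266 CPM in adult crypts, against 42.6, 36.1 and 33.1 CPM in fetal epithelium (log2 fold change 2.87 ± 0.13 (SE), edgeR adjusted p = 1.05e-09). Cat, catalase, fell to 87.7, 98.1 and 109.9 CPM, against 194, 214 and 215 CPM in fetal libraries (-1.07 ± 0.10 (SE), edgeR adjusted p = 8.67e-07). Gpx3, a secreted glutathione peroxidase, fell by 1.94 on the log2 scale (SE 0.19, edgeR adjusted p = 2.28e-06). Aqp8, a channel that passes hydrogen peroxide, fell by 5.98 (SE 0.53, edgeR adjusted p = 7.08e-07) to 2, 0 and 2 counts in adult libraries, against 85, 178 and 152 counts in fetal ones.

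**Figure D4:**
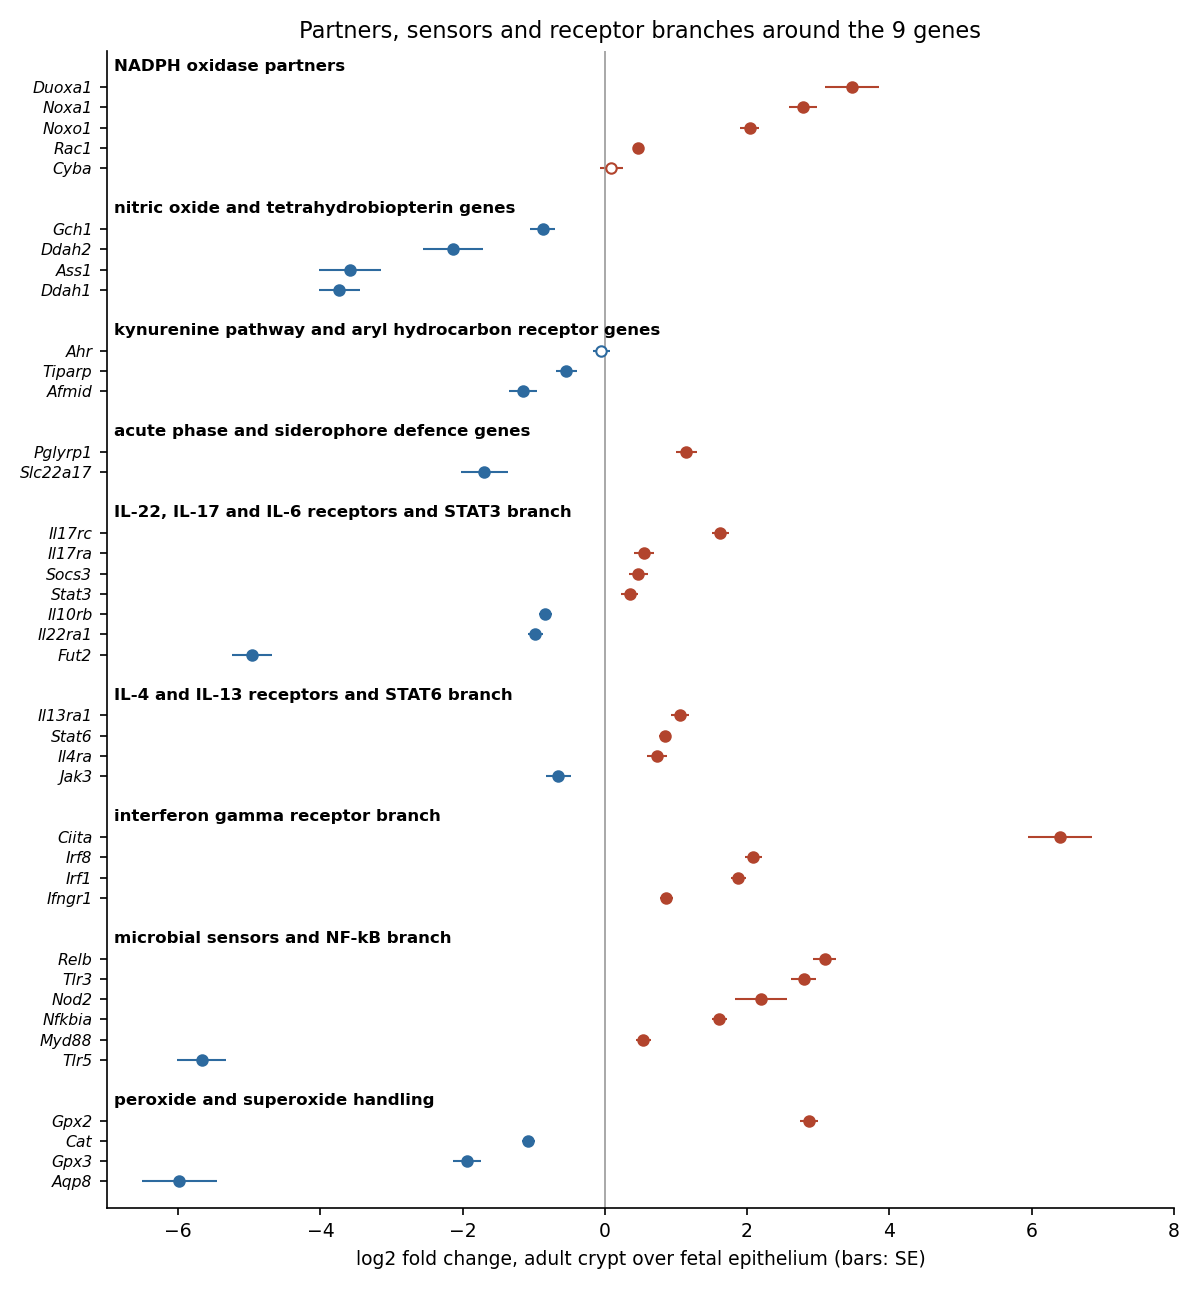
Log2 fold change of adult crypt over fetal epithelium, with SE as bars, for the tested genes of the pathway lists that the naming rule picked and the text describes, other than Nox4, Kynu and Qprt, which have at most 1 adult count. Red is higher and blue lower in adult crypts, and open symbols did not pass the test. The oxidase partners drawn lie right of 0, with Cyba at 0.09 not past the test, and Nox4, which fell, is not drawn. The interferon gamma branch and most sensors lie right of 0, with Tlr5 at -5.67 as the exception among sensors drawn. The nitric oxide, kynurenine and aryl hydrocarbon receptor genes drawn lie left of 0, with Ahr at -0.05 not past the test. The single nitric oxide riser, Spr, is not drawn.

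Several of these genes are also made by immune cells. Of 9 neutrophil markers none was tested, and they summed to 0 to 0.176 CPM in adult and 0.249 to 1.497 CPM in fetal libraries, with S100a8, S100a9, Ly6g and Cxcr2 at 0 counts in all 6. Macrophage and dendritic cell markers summed to 24.9 to 29.6 CPM in adult and 25.3 to 29.4 CPM in fetal libraries, with Adgre1 at 0, and of 4 tested 2 rose and 2 fell. Lymphocyte markers summed to 1.19 to 3.80 CPM in adult and 0.996 to 2.24 CPM in fetal libraries, with Nkg7 at 0. Endothelial markers summed to 5.29 to 7.62 CPM in adult and 1.99 to 7.72 CPM in fetal libraries, but different genes made up these sums. In adult libraries Esam held 4.06 to 5.93 CPM, and Cdh5, Kdr and Emcn had 0 counts. In fetal replicates 1, 2 and 3 Cdh5 had 24, 2 and 9 counts and Esam 7, 3 and 6. The part of these cells in the 9 genes was not tested.

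The fetal libraries held more of other tissues. Mesenchymal markers summed to 7.25 to 15.9 CPM in adult and 148 to 208 CPM in fetal libraries, with all 9 tested lower in adult. Pancreatic exocrine markers summed to 1.06 to 1.69 CPM in adult and 1498 to 3163 CPM in fetal libraries. The 7 gastric markers summed to 1.76 to 3.90 CPM in adult libraries and to 27.0, 25.8 and 311 CPM in fetal replicates 1, 2 and 3. Fetal replicate 3, the highest fetal library for Duox2, was thus also the highest for gastric markers. Within the epithelium all 7 crypt base stem cell markers rose, with sums of 7369 to 9904 CPM in adult and 180 to 247 CPM in fetal libraries. Paneth cell markers summed to at least 168 CPM in each adult library and at most 43.9 CPM in each fetal one. Adult enterocyte markers went both ways, with 5 of 10 higher and 5 lower, and sums of 2588 to 3342 CPM in adult and 3239 to 4572 CPM in fetal libraries. The part of these differences in makeup in the 9 genes and their pathway lists was not tested.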

How the data were processed

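The data used were 6 RNA-seq libraries of sorted epithelium, 3 of adult crypts and 3 of fetuses. The 9 organoid libraries of the series stand in a table without gene identifiers and were not used here. The deposited values are raw counts per gene: whole numbers with a different total in each library, with no normalization by the authors. The submitters' processing notes name the build mm10 and edgeR. Aligner, counter, annotation and strand setting are not given in the sources. Adult libraries were prepared, per the labels, with a strand-specific total RNA kit for small amounts of RNA.

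The main test was edgeR 4.0.16 (quasi-likelihood, R 4.3.3) with TMM factors and filterByExpr on the groups, without covariates. Of 24594 rows 13314 were tested, and calls needed a Benjamini-Hochberg adjusted p under 0.05. CPM values use library sizes times the TMM factors. The SE of a log2 fold change was taken as the log2 fold change over the root of F and can be too small for low genes. Against 0 counts, a fold uses 3 counts over the group as floor, and ratios with 1 to 3 counts in a group carry exact 95% intervals. Rn45s, a ribosomal RNA precursor, took 7.32% to 10.7% of counts and was kept. Alternatives were RLE factors, unscaled library sizes, DESeq2 1.42.0, no filter, Rn45s left out, a replicate block and leaving out each library. The procedure was also run on simulated data with far fewer changed genes than were called here. That run does not cover a contrast of this breadth.

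The 9 genes and the 10 pathway lists (132 genes, 91 tested) were chosen with earlier results of these data known. The rule for named genes took the 9 genes, a set of key partners, up to 4 called genes per list with the smallest p, and the 3 nearest profiles of each gene that passed the filter. Some list members are not reported here by name. Adjusted p-values are over all tested genes. Gene coordinates and promoters are from RefSeq GRCm38.p6, and exons and the Duox cluster map from GENCODE M21 on the same build.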

Additional observations from a re-analysis of the deposited data

How the results depend on the processing

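Calls over all genes kept within 1.5 times of 3445 higher and 3859 lower under every alternative, with 3102 and 3636 by DESeq2. The labels do not state that replicate numbers pair the libraries. Same-numbered libraries had correlations of -0.11 to -0.04 in their deviations from the group means. These values cannot decide whether a preparation day was shared, since the libraries also differ in cell makeup. With a replicate block 3206 genes were higher and 3680 lower, and Duox2 had a log2 fold change of 5.35. Without a filter on low counts, 1 gene of the joint kynurenine and aryl hydrocarbon receptor list rose. In that setting 2 acute phase genes rose and 2 fell (1 and 1 with the filter). That setting tested 19345 genes and moved the median log2 fold change of all genes to -0.13, and no other scaling moved it by over 0.1. Leaving out 1 library gave 1 to 2 rising acute phase genes, 5 to 8 rising genes of the IL-22, IL-17 and IL-6 branch, and log2 fold changes of 4.99 to 6.10 for Duox2, 4.004 to 5.21 for Duoxa2, 1.45 to 1.83 for Nox1 and 5.60 to 6.52 for Nos2. Adult Ido1 averaged 45.8 to 73.1 CPM and Lcn2 1.99 to 2.90 CPM. Of 516 pairs of a named gene and a setting, 510 kept direction and call. The 6 others, each with a library left out, were Stat3 losing its call in 3 settings, Ahr reaching 0.0030 without adult replicate 2 (-0.12 to 0.0030 over the libraries left out), and Cyba at -0.059 without adult replicate 3 and -0.040 without fetal replicate 3 (-0.059 to 0.23). The cause was not tested. Depth limits Saa1, Saa2 and Retnlb, which hold at most 5 counts over the adult group.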
